A study of Mus musculus with 6 samples.

Results

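The 10 nuclear genes described here encode enzymes and factors that transcribe and copy mitochondrial DNA (mtDNA), and a pair of proteins that stabilise mitochondrial mRNAs. They were found by gene name among the 54532 genes of the expression table, and each name matched 1 gene. Transcription is covered by Tfam, Tfb1m, Tfb2m, Polrmt and Tefm, replication by Polg, Polg2 and Ssbp1, and mRNA stability by Lrpprc and Slirp. RNA came from the hearts of 6 mice, taken 12 weeks after tamoxifen had been injected into 8-week-old animals at 45 mg per kg per day over 5 days. The 3 control mice (Ctrl) were Mrps5 fl/fl, and the 3 conditional knockout mice (cKO) were Mrps5 fl/fl and also carried MCM, the αMHC-MerCreMer transgene, whose tamoxifen-activated Cre is made in cardiomyocytes. MRPS5, the product of the deleted gene, belongs to the small mitoribosomal subunit. Both groups had received tamoxifen and carried the floxed alleles, but Ctrl had no MerCreMer, so its presence and the loss of Mrps5 cannot be told apart. The labels give heart tissue and the study's methods ventricular tissue, and mtDNA itself was not measured in these libraries.

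As background, mtDNA is transcribed from promoters on both strands by POLRMT, a single-subunit polymerase that needs TFAM to bind and bend the promoter and TFB2M to open it, while TEFM keeps the enzyme moving. TFAM also packages mtDNA into nucleoids, and its amount is known to track mtDNA amount in many tissues. The long transcripts are cut into single RNAs, and the LRPPRC and SLIRP complex binds the mRNAs, keeps them from decay and favours their polyadenylation. Heart muscle holds much mtDNA and mtDNA-encoded RNA. Several of these nuclear genes are known as targets of the transcription factors NRF1 and GABP, an ETS family factor also called NRF2.

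The promoter stretches of 8 of the 10 genes are shown first because matches to the motifs of those 2 factors lie in them. All 10 genes had a promoter window of 300 bases in the RefSeq table (build GRCm38.p6), from 250 bases before the annotated start to 50 bases from it. The sequences run 5′ to 3′ on the strand of the gene, from 90 bases before that RefSeq start through the first 30 bases from it. Capitals mark matches to GCGCANGCG (NRF1) or CCGGAAG (GABP and other ETS factors), searched on both strands.
Tfam (chr10:71238015-71238134, minus strand): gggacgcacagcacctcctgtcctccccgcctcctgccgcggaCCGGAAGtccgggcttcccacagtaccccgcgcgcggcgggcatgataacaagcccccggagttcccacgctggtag
Tfb2m (chr1:179546247-179546366, minus strand): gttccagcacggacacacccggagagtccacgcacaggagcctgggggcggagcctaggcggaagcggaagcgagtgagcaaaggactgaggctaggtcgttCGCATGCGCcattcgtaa
Polrmt (chr10:79746552-79746671, minus strand): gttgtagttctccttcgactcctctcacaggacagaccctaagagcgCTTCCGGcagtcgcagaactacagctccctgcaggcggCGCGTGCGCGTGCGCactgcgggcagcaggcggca
Tefm (chr11:80142124-80142243, minus strand): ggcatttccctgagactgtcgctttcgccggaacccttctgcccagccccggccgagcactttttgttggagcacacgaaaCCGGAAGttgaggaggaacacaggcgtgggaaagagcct
Polg (chr7:79466244-79466363, minus strand): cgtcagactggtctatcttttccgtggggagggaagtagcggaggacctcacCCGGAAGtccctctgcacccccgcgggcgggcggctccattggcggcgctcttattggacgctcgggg
Polg2 (chr11:106779508-106779627, minus strand): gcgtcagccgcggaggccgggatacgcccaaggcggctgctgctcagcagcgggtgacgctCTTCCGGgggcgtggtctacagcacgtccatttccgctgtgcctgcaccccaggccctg
Ssbp1 (chr6:40471378-40471497, plus strand): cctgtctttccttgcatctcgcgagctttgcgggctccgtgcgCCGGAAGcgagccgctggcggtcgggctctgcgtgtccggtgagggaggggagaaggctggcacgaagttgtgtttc
Slirp (chr12:87443806-87443925, plus strand): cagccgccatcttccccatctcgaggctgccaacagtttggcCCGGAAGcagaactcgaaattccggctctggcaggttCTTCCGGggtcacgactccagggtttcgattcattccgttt

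The GABP letters were present in the windows of 7 of the 10 genes, all of those shown but Tfb2m, against 8.86% of all 32851 promoter windows and 17.1% of the 11867 windows of genes tested here. Among windows of tested genes with a GC content as in the members (52.0% to 70.3%) the share was 20.4%. In each of the 7 genes a match began within 50 bases before the RefSeq start, which held for 3.45% of all windows and 7.22% of those of tested genes. By the gene coordinates of the expression table, Tfam, Ssbp1, Polg and Tefm begin further upstream, and there the match lies inside the gene. That distance was chosen after the matches were seen. The NRF1 letters were found in Tfb2m and Polrmt, against 6.25% of all windows and 13% of those of tested genes, and in Polrmt the 2 matches overlap each other. GGGCGG (SP1) was in 6 of the 10 windows, against 62.2% of those of tested genes, and AAGATGGCG (YY1) in that of Slirp, against 3.03%. CACGTG (E-box), CAAGGTCA (ERR), TGACGTCA (CRE) and TGATGNAAT (ATF4) were in none of the 10, and in 10.1%, 1.09%, 2.94% and 0.430% of the windows of tested genes. These are matches of letters in 1 window per gene and not measured binding.

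Each heart was 1 library, with 15989322 to 24875499 reads assigned to genes. Mrps5 stood at 5.99 ± 0.690 FPKM in Ctrl and 1.22 ± 0.0947 FPKM in cKO hearts (SD, n = 3 each). The change was -1.65 on the log2(FPKM + 1) scale, which compresses changes at low levels, and -2.25 by voom on whole reads. FPKM is fragments per kilobase of gene, scaled to library size. cKO replicate 2 stood apart from the other hearts: its mean chi-square per gene against the other cKO hearts was 40.8 and 43.1, against 13.2 to 16.7 for the other pairs within a group. It also had no reads of the Y-linked genes examined and 10.7 FPKM of Xist, whereas each other heart had at most 0.127 FPKM of Xist. The study states that its animals were all male, and the labels give no sex. If that heart was female, sex was unbalanced between the groups, and its part in the results was not tested. Of 10 cardiomyocyte markers 7 were lower in cKO hearts and none was higher, and their summed level was 22575 to 27382 FPKM in Ctrl and 12459 to 19397 FPKM in cKO hearts. Of 6 endothelial markers 4 were lower and none higher (summed 318 to 332 against 186 to 202 FPKM). Among all genes tested, 17.0% were called lower and 16.3% higher. Calls were also made among the fibroblast (1 higher, 1 lower of 6), mural (1 higher, 1 lower of 4) and leukocyte markers (1 lower of 5). Of the 4 atrial, 5 erythroid and 2 adipocyte markers tested none was called. The summed levels in Ctrl and cKO hearts were 219.7 to 248.6 and 199.7 to 210.4 FPKM for fibroblast, 146 to 165 and 94.4 to 121 FPKM for mural and 244 to 324 and 188 to 279 FPKM for leukocyte markers. Those of the atrial markers were 25.2 to 992 and 106 to 737 FPKM, of the erythroid markers 880.4 to 2056 and 585 to 1588 FPKM, and of the adipocyte markers 4.18 to 17.8 and 1.96 to 9.31 FPKM. No marker was at 0 in all hearts. In such bulk tissue fewer cells of a type and less RNA per cell cannot be told apart, and the part of these differences in the results below was not tested.

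To ask whether the loss of Mrps5 went with a change in the genes that make and keep mitochondrial RNA, cKO and Ctrl hearts were compared across all genes with limma on log2(FPKM + 1). All 10 members passed the filter of a mean of at least 0.5 FPKM. With limma none of the 10 was called higher and none lower at an adjusted p of 0.05, whereas 33.3% of the 12944 genes tested were called, 16.3% as higher (2110 genes) and 17.0% as lower (2205 genes). At an unadjusted p under 0.05, 2 of the 10 passed (Tfb2m and Polrmt), against 44.9% of all genes, and voom on whole reads also called none and had 2 at that unadjusted level. The log2 fold change was negative for 7 members and positive for 3. Its median was -0.14, against -0.02 over all genes tested, and was -0.05 when libraries were scaled without the mtDNA-encoded genes near 0 (-0.0038) when scaled to total reads and -0.07 without cKO replicate 1. The median size of the change, without its sign, was 0.15 for the members and 0.22 for all genes. In the FPKM as deposited, the groups did not overlap for 4 members (Tfb2m, Polrmt, Polg and Polg2), all lower in cKO, and no member was wholly higher. Over all genes the same held for 26.4% (lower) and 24.8% (higher). Such separation depends on how libraries are scaled, and it was not examined under the other scalings.

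**Figure D1:**
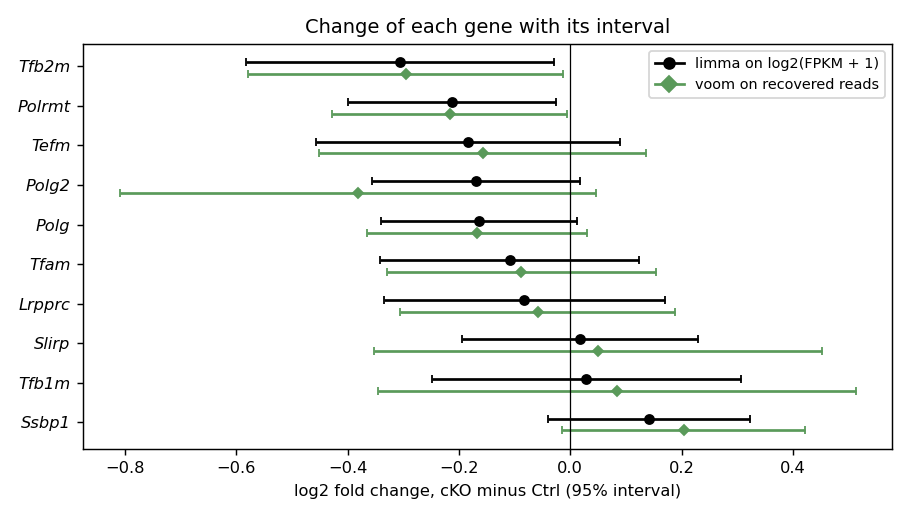
Log2 fold change (cKO minus Ctrl, x axis) of the 10 genes with 95% intervals, from limma on log2(FPKM + 1) (black circles) and from voom on recovered reads (green diamonds), 3 hearts per group. Only the intervals of Tfb2m and Polrmt lie wholly below 0, and their adjusted p-values in limma were 0.0852 and 0.0791.

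The 95% intervals bound what these 6 hearts could have missed. Over the 10 members the limma intervals reached from -0.58 (Tfb2m) to 0.32 (Ssbp1). On whole reads, without a pseudocount, they reached from -0.81 (Polg2) to 0.51 (Tfb1m), and these 2 genes rested on 37 to 74 and 88 to 160 reads per heart. The lack of a call therefore does not show equal levels.

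Tfb2m, the promoter-opening factor, had the largest change of the transcription genes. Its Ctrl hearts (replicates 1, 2 and 3) measured 22.5, 23.3 and 21.8 FPKM, and its cKO hearts 19.3, 15.0 and 20.3 FPKM. The 3 cKO values lay below all Ctrl values, and cKO replicate 2 was far below the other 2. The mean was 22.5 ± 0.737 in Ctrl and 18.2 ± 2.84 FPKM in cKO, 80.7% of the Ctrl level, and the log2 fold change was -0.31 (SE 0.117, 95% interval -0.58 to -0.03) with an adjusted p of 0.0852 in limma. Without cKO replicate 2 the change was -0.18 (adjusted p = 0.111). Across the 16 alternative settings it ran from -0.39 to -0.16.

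Polrmt, the mitochondrial RNA polymerase, measured 6.59, 7.75 and 7.50 FPKM across Ctrl hearts, compared with 5.95, 6.17 and 6.29 FPKM across cKO hearts. The cKO hearts were close together, and each lay below the lowest Ctrl heart. The mean was 84.3% of the Ctrl level (7.28 ± 0.608 against 6.14 ± 0.170 FPKM), with a log2 fold change of -0.21 (SE 0.0789, 95% interval -0.40 to -0.03). Its adjusted p of 0.0791 in limma was the lowest of the 10 members. Leaving out cKO replicate 2 left the change at -0.22 (adjusted p = 0.119). Across the 16 alternative settings it ran from -0.27 to -0.08.

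Tefm, the elongation factor, was at 13.1, 13.5 and 11.7 FPKM in Ctrl and 9.82, 13.1 and 10.6 FPKM in cKO hearts. cKO replicate 2 lay within the Ctrl range and the other 2 below it. The log2 fold change was -0.18 (95% interval -0.46 to 0.09, adjusted p = 0.259), -0.30 without cKO replicate 2 (adjusted p = 0.0501) and -0.10 without cKO replicate 1 (adjusted p = 0.544). Tfam, the nucleoid protein and promoter-binding factor, had a similar arrangement of hearts, at 9.62, 10 and 9.11 FPKM in Ctrl and 7.87, 10.1 and 8.57 FPKM in cKO. Here cKO replicate 2 was the highest of all 6 hearts, and the other 2 cKO hearts were the lowest. The log2 fold change of Tfam was -0.11 (95% interval -0.34 to 0.12, adjusted p = 0.431), -0.20 without that heart (adjusted p = 0.109), -0.04 without cKO replicate 1 (adjusted p = 0.808) and 0.03 with libraries scaled to total reads.

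Tfb1m, a paralogue of Tfb2m that methylates mitochondrial 12S rRNA rather than opening promoters, was at 1.29, 1.89 and 1.78 FPKM in Ctrl and 1.44, 1.90 and 1.76 FPKM in cKO hearts. The groups covered nearly the same range, and replicate 1 was the lowest in both. Its log2 fold change was 0.03 (95% interval -0.25 to 0.31, adjusted p = 0.869) and changed sign when Ctrl replicate 1 (-0.07) or cKO replicate 2 (-0.02) was left out. Summed over the 5 transcription genes, the level was 51.9 to 56.4 FPKM in Ctrl and 44.4 to 47.5 FPKM in cKO hearts, so the sums did not overlap. Tfb2m and Tefm make up most of that sum.

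**Figure D2:**
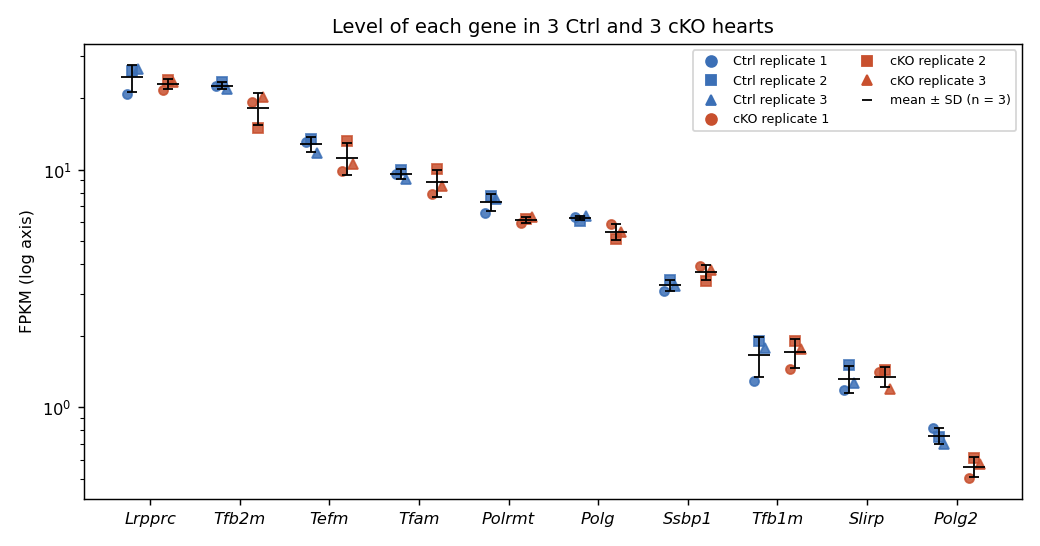
FPKM (log axis) of the 10 genes in the 3 Ctrl (blue) and 3 cKO (orange) hearts, with symbols for the replicate number and black marks for mean ± SD, ordered by the Ctrl mean. Blue and orange points are apart for Tfb2m, Polrmt, Polg and Polg2 and mix for the other 6 genes.

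Of the replication genes, Polg, the catalytic subunit of the mtDNA polymerase, was at 6.30, 6.10 and 6.35 FPKM in Ctrl and 5.91, 5.08 and 5.44 FPKM in cKO hearts. All cKO values were below all Ctrl values, and Ctrl hearts varied little (SD 0.135 FPKM). The log2 fold change was -0.16 (SE 0.0745, 95% interval -0.34 to 0.01, adjusted p = 0.133). Across the 16 alternative settings the change of Polg ran from -0.21 to -0.04. Polg2, the accessory subunit that makes the polymerase processive, was the least abundant member at 0.819, 0.751 and 0.702 FPKM in Ctrl and 0.502, 0.610 and 0.575 FPKM in cKO hearts. Its groups were also apart, and the cKO mean was 74.2% of the Ctrl mean, the lowest share among the 10. On the log2(FPKM + 1) scale, which compresses so low a level, the change was -0.17 (adjusted p = 0.142), and on whole reads it was -0.38 (95% interval -0.81 to 0.05, voom adjusted p = 0.149).

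Ssbp1, the protein that coats single-stranded mtDNA, was the member with the largest positive change. It was at 3.09, 3.43 and 3.24 FPKM in Ctrl and 3.92, 3.40 and 3.76 FPKM in cKO hearts. Only cKO replicate 2 lay within the Ctrl range, and the other 2 cKO hearts lay above it. The log2 fold change was 0.14 (SE 0.0767, 95% interval -0.04 to 0.32, adjusted p = 0.197). Scaled to total reads it was 0.26 and passed the threshold (adjusted p = 0.0355), the only call of a member under any of the 16 alternatives, whose adjusted p for Ssbp1 ran from 0.0355 to 0.402.

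Lrpprc, an RNA-binding protein of the matrix, was at 20.8, 26.0 and 26.6 FPKM in Ctrl and 21.7, 23.8 and 23.3 FPKM in cKO hearts. Ctrl replicate 1 was the lowest heart, and all cKO hearts lay inside the Ctrl range. The log2 fold change was -0.08 (SE 0.107, 95% interval -0.34 to 0.17, adjusted p = 0.585), and it was positive when libraries were scaled to total reads (0.06) or without mtDNA-encoded genes (0.01). It was -0.19 without Ctrl replicate 1, the low heart (adjusted p = 0.154), -0.02 without Ctrl replicate 3, -0.04 without Ctrl replicate 2 and -0.05 without cKO replicate 1.

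Slirp, the small partner of LRPPRC, was at 1.18, 1.5 and 1.27 FPKM in Ctrl and 1.41, 1.43 and 1.19 FPKM in cKO hearts, with a log2 fold change of 0.02 (95% interval -0.19 to 0.23, adjusted p = 0.892). These values are uncertain in a way the interval does not hold. Of the 3104 exonic bases that GENCODE M21 gives Slirp, 3036 (97.8%) also lie in exons of genes on the opposite strand, 2914 of them in Snw1 and 122 in Alkbh1. Only 68 bases belong to Slirp alone, and 70 to 104 reads per heart were assigned to it. The library kit described does not mark strand and the strand setting of the counting was not stated, so reads of Slirp and Snw1 there cannot be told apart or may have been dropped as ambiguous. Snw1 itself, a splicing factor gene, averaged 4.61 FPKM over the 6 hearts (log2 fold change -0.20, adjusted p = 0.253). Without Slirp the median log2 fold change of the members was -0.16.

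**Figure D3:**
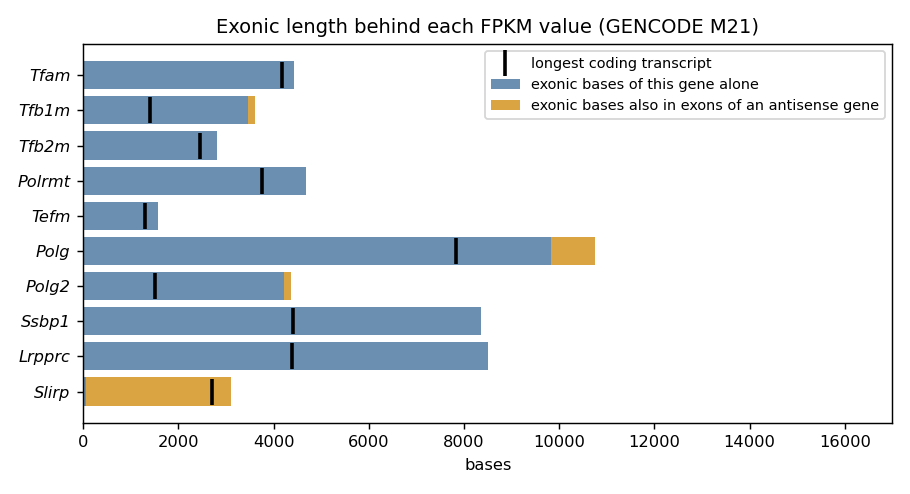
Exonic bases (x axis) behind the FPKM of each gene in GENCODE M21, split into bases of that gene alone (blue) and bases shared with exons of an antisense gene (ochre), with black ticks at the longest coding transcript. Nearly the whole bar of Slirp is shared, while Polg, Tfb1m and Polg2 share 8.57%, 3.93% and 3.03%.

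The gene length behind FPKM was the union of all annotated exons, which was 2.89 times the longest coding transcript for Polg2, 2.57 times for Tfb1m, 1.94 times for Lrpprc and 1.90 times for Ssbp1. By mean FPKM in Ctrl the order was Lrpprc, Tfb2m, Tefm, Tfam, Polrmt, Polg, Ssbp1, Tfb1m, Slirp and Polg2, from 24.5 to 0.757 FPKM, a 32.3-fold range. Of the neighbours in that order, Lrpprc and Tfb2m overlapped in their 3 Ctrl values, as did Tfb1m and Slirp, and the other pairs were apart. The cKO hearts gave the same order of means. With levels computed per length of the longest coding transcript, Polg2 (2.19 ± 0.169) passed Slirp (1.51 ± 0.191) and the other 8 ranks stayed.

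To compare members that act together, 9 ratios of FPKM were formed within each heart, which removes the scaling between libraries. None differed between groups beyond the overlap of the hearts, and no ratio can reach an exact permutation p below 0.1 with 3 against 3. The nearest to a separation was Polg over Polg2, the catalytic over the accessory subunit, at 7.70, 8.12 and 9.04 in Ctrl and 11.8, 8.34 and 9.46 in cKO hearts (log2 difference 0.24, exact two-sided p = 0.2). cKO replicate 1 was the highest, and without it the difference was 0.10. cKO replicate 2 lay inside the Ctrl range. Tfam over Ssbp1, the packaging protein over the single-strand binding protein, was 3.11, 2.92 and 2.81 in Ctrl and 2.01, 2.97 and 2.28 in cKO hearts (log2 difference -0.30, exact p = 0.3). Only cKO replicate 2 overlapped the Ctrl hearts here, and the difference was -0.46 without it and -0.18 without cKO replicate 1.

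Lrpprc over Slirp differed by -0.12 (exact p = 0.4), and by -0.22 to -0.03 when 1 heart was left out, the ends without cKO replicate 3 and Ctrl replicate 3. Polrmt over Tfb2m differed by 0.08 (exact p = 0.8) and Polrmt over Tefm by -0.04 (exact p = 0.7), and both changed sign without cKO replicate 2 (-0.06 and 0.07). Tfb2m over Tfb1m differed by -0.37 (exact p = 0.4), by -0.15 without cKO replicate 2 and by -0.21 without Ctrl replicate 1. The summed mtDNA-encoded mRNAs over a member, a level of product against a factor, differed by -0.28 over Lrpprc, by -0.24 over Tfam and by -0.12 over Polrmt, with exact p-values of 0.3, 0.3 and 0.4. Without cKO replicate 2 these differences were -0.17, -0.07 and -0.04. Without Ctrl replicate 1 those over Lrpprc and Polrmt were -0.17 and -0.05, and without cKO replicate 1 those over Tfam and Polrmt were -0.37 and -0.19, while that over Polrmt was -0.20 without Ctrl replicate 3. Adjusted over the 9 ratios, p was 0.514 or higher for each.

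**Figure D4:**
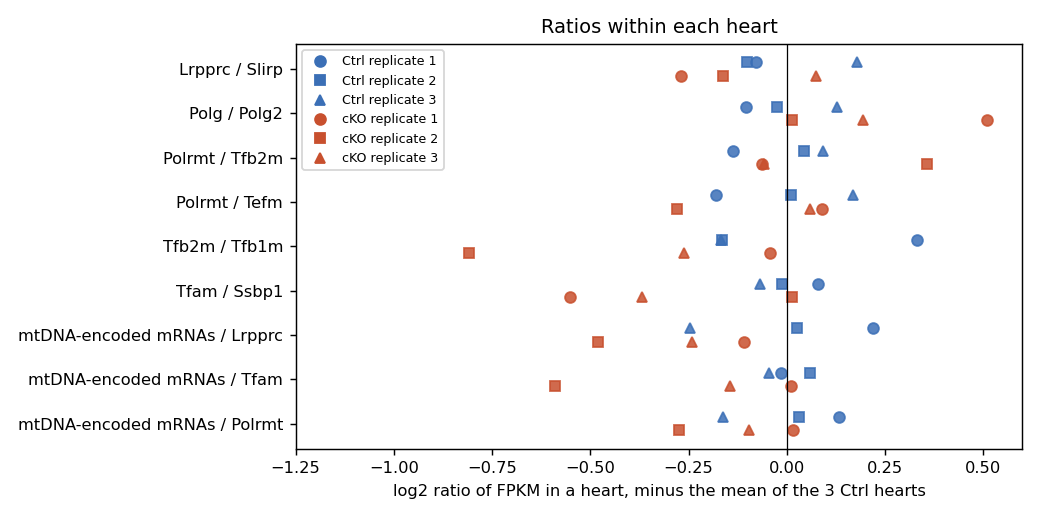
Log2 ratio of FPKM within each heart, minus the mean of the 3 Ctrl hearts (x axis), for 9 ratios in Ctrl (blue) and cKO (orange) hearts, with symbols for the replicate number. In every row the ranges of the orange and blue points overlap, and in several rows the orange square (cKO replicate 2) lies apart from the other orange points.

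Each member was compared with the others for its pattern over the 6 hearts. The measure was the root-mean-square difference of log2(FPKM + 1) centred on the Ctrl mean. Tfam and Tefm were each nearest to the other (0.0632), both with cKO replicate 2 as the highest cKO heart. Tfb1m and Lrpprc were also each nearest to the other (0.0905), both with replicate 1 as the lowest of each group. Polg2 to Tfam (0.0875) and Polg to Polg2 (0.0890) were at least as close, so no division into pairs is read from these distances. Tfb2m was the least like the rest, with Polg as its nearest member (0.145). Among 5866 genes averaging 5 FPKM or more, the 5 nearest to Tfb2m were Npepl1, Hdac5, Pik3r2, Pnpla8 and Echdc2 (0.0427 to 0.0496). In each of these, cKO replicate 2 was the lowest heart, and their log2 fold changes were -0.28 to -0.30 with adjusted p of 0.0554 to 0.108, so none was called. They were picked for their likeness to Tfb2m over the same hearts, so these traits follow from the choice.

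The members were then set beside other nuclear genes that act on mtDNA and its RNA. Of 12 further replication and nucleoid factors 9 passed the filter, of which 3 were higher in cKO hearts and none was lower. Lonp1, the matrix protease that is known to degrade TFAM, had the largest rise, with means of 54.9 ± 1.97 and 202 ± 33.1 FPKM (log2 fold change 1.85, adjusted p = 0.000415). It was at 52.8 to 56.7 FPKM in Ctrl and 166 to 232 FPKM in cKO hearts, far apart, while the mRNA of Tfam overlapped. These libraries do not measure TFAM protein, and a link between Lonp1 and Tfam was not tested. Atad3a, a membrane ATPase linked to nucleoids, rose by 0.67 on the log2 scale (adjusted p = 0.0216) and Lig3, the mtDNA ligase, by 0.33 (adjusted p = 0.0173). Both of these calls were lost without Ctrl replicate 1 or Ctrl replicate 3 (adjusted p 0.0546 to 0.0735).

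Of 6 genes of deoxynucleotide supply 3 fell and none rose. Mpv17, an inner membrane protein needed for mtDNA maintenance, was at 10.5, 12.7 and 11.1 FPKM in Ctrl and 5.75, 6.70 and 6.89 FPKM in cKO hearts. The hearts were well apart, and the log2 fold change was -0.74 (adjusted p = 0.00289). Rrm2b, a ribonucleotide reductase subunit, fell by 0.38 and Dguok, a deoxynucleoside kinase of the matrix, fell by 0.34 (adjusted p 0.0154 and 0.0106). The call of Rrm2b was lost without Ctrl replicate 2 (adjusted p = 0.0590), and that of Dguok with libraries scaled to total reads (adjusted p = 0.0586).

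Of the MTERF family with Mrpl12 (6 genes) 1 fell, Mterf2, a DNA-binding member of the family, with 7.41 ± 1.29 FPKM in Ctrl and 4.07 ± 0.205 in cKO hearts (log2 fold change -0.72, adjusted p = 0.00552). Of 12 RNA cleavage and FASTK family genes 1 rose and 1 fell. Elac2, the enzyme that cuts the 3′ side of mitochondrial tRNAs, rose by 0.66 on the log2 scale (8.29 ± 0.332 against 13.7 ± 1.70 FPKM, adjusted p = 0.00360). Ptcd1 fell by 0.42 on the log2 scale (adjusted p = 0.0189), a call lost without Ctrl replicate 3 (0.0594) or cKO replicate 1 (0.0529) and with total reads (0.0742). Of 12 tailing, granule and decay factors 2 rose and none fell. These were Rexo2, an exonuclease for very short RNAs, with means of 14.8 ± 0.350 and 26.7 ± 4.30 FPKM (log2 change 0.80, adjusted p = 0.00334), and Pde12, which removes poly(A) tails, with means of 1.59 ± 0.0883 and 2.74 ± 0.0718 FPKM (log2 change 0.53, adjusted p = 0.00272). Set against the 16.3% and 17.0% of all genes called higher and lower, these small lists hold counts of 0 to 3, and nothing particular to a list is read from them.

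**Figure D5:**
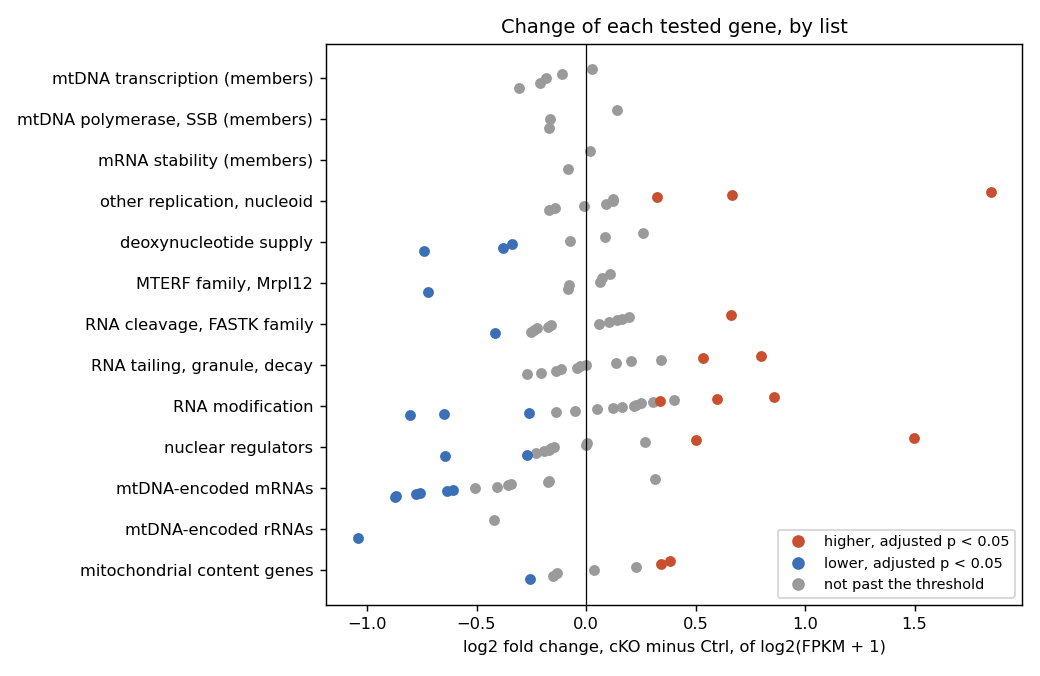
Log2 fold change (cKO minus Ctrl of log2(FPKM + 1), x axis) of each tested gene in 13 lists (y axis), coloured by call (orange higher, blue lower, grey not past an adjusted p of 0.05). All 10 members in the top 3 rows are grey, between -0.31 and 0.14, while the mtDNA-encoded mRNAs reach from -0.87 to 0.31.

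Of 12 nuclear regulators of these genes 2 rose and 2 fell, near the shares of all genes called higher and lower (16.3% and 17.0%). The values below therefore describe single genes and not the group. Ppargc1a, which encodes the coactivator PGC-1α, was at 17.0, 22.6 and 20.9 FPKM in Ctrl and 10.4, 13.7 and 13.6 FPKM in cKO hearts. All cKO hearts were below all Ctrl hearts (log2 fold change -0.64, SE 0.141, adjusted p = 0.0143), though the adjusted p was 0.0503 without Ctrl replicate 2 and 0.0512 without Ctrl replicate 3. Gabpa, the DNA-binding subunit of GABP, was at 9.21 ± 0.650 in Ctrl and 7.48 ± 0.468 FPKM in cKO (log2 fold change -0.27, adjusted p = 0.0422). That call held in 5 of the 16 alternatives. Among others it was lost without any 1 of the 6 hearts and with total reads (-0.13, adjusted p = 0.205). Nrf1, chosen here for its motif after its values were seen, averaged 1.02 and 1.04 FPKM (log2 fold change 0.01, adjusted p = 0.970). Myc was higher by 1.5 on the log2 scale (1.99 ± 0.912 in Ctrl, 7.36 ± 2.24 FPKM in cKO, adjusted p = 0.00922), and Pprc1, a coactivator related to PGC-1α, by 0.50 on the log2 scale (adjusted p = 0.0451). The call of Pprc1 held in 9 of the 16 alternatives. Among others it was lost without Ctrl replicate 1, 2 or 3 or cKO replicate 2 or 3 (adjusted p 0.0635 to 0.130).

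The RNAs these factors make and stabilise were lower in part. The 13 mtDNA-encoded mRNAs made up 35.5% to 37.9% of the FPKM of a Ctrl heart and 30.8% to 34.6% of that of a cKO heart, with cKO replicate 2 the lowest. Of the 13, 6 fell and none rose by limma, beside 17.0% of all genes called lower, with a median log2 fold change of -0.51. Without cKO replicate 2 the median was -0.33 and 5 fell. The call lost there was that of mt-Cytb (adjusted p = 0.0678), and mt-Co2 turned to 0.06 on the log2 scale (both chosen after their values were seen). Over the 6 runs that each left out 1 heart, 4 to 6 of the mRNAs were lower, and with no filter on low values 0 were. mt-Nd4 was at 13912 ± 1612 in Ctrl and 7606 ± 983 FPKM in cKO (log2 fold change -0.87, adjusted p = 0.00551), and mt-Atp6 at 4080 ± 289 and 2405 ± 426 FPKM (-0.77, adjusted p = 0.00808). mt-Nd6, which is encoded on the other strand from the other 12, fell by 0.87 (adjusted p = 0.00364), though antisense RNA of that region would be counted with it if strand was not used. The calls of these 3 genes were lost when no filter on low values was applied (adjusted p 0.0694 to 0.180).

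mt-Nd1, chosen after its values were seen, was the exception in direction, at 20759 to 26246 FPKM in Ctrl and 28311 to 31164 FPKM in cKO hearts. Its groups were apart, but its log2 fold change of 0.31 was not called by limma (adjusted p = 0.102) and was by voom (0.0488) and under both scalings to total reads, with and without mtDNA-encoded genes. The log2 fold changes of the 13 mRNAs thus ran from -0.87 to 0.31, against -0.31 to 0.14 for the 10 members. The pseudocount compresses changes of the low members but not of these abundant mRNAs. By voom on whole reads the ranges were -0.85 to 0.34 for the mRNAs and -0.38 to 0.20 for the members. Of the 2 mtDNA-encoded rRNAs 1 was called lower by limma and none higher. That was mt-Rnr2 (16S), which fell by 1.04 on the log2 scale (adjusted p = 0.00322). The other, mt-Rnr1, changed by -0.42 and was not called, though voom called both lower. Both were measured in libraries selected for poly(A).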

How the data were processed

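The authors prepared poly(A)-selected, paired-end libraries and deposited FPKM values of 54532 genes. Per the labels' processing notes they used HISAT2 2.0.5, featureCounts 1.5.0-p3 and DESeq2 1.16.1, and the notes name mm9 as the build. Coordinates of the table nevertheless matched GENCODE M21 (GRCm38) for 53499 of 54409 shared gene identifiers. The deposited gene length, a value of other kind in bases, was taken as given. FPKM times length gave whole reads for 100% of values (within 0.01 read). The implied library size was 0.913 to 0.980 of the reads recovered in Ctrl and 1.06 in cKO hearts, so the FPKM had been scaled between samples by the authors.

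The 12944 genes averaging 0.5 FPKM or more were tested on log2(FPKM + 1) with limma 3.58.1 in R 4.3.3 (eBayes with trend, 2 groups, two-sided), and p was adjusted across them by Benjamini-Hochberg with a threshold of 0.05. A pseudocount of 1 understates changes of low genes. The script was tested on simulated data. Groups came from the sample titles, and the methods describe littermates without saying which hearts share a litter. Ratios within a heart were compared by exact permutation (smallest p 0.1). Alternatives were a pseudocount of 0.1, filters, scalings, variance models, voom on recovered reads, a replicate block and leaving out each heart. Levels per longest coding transcript and the median without Slirp were added after the data were seen. Errors are SD (n = 3) unless SE is stated.

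The members and gene lists were chosen with earlier results of these data known. Outside the members, up to 3 called genes per direction and list with the largest change are named, and others are marked as chosen later. Promoters are from RefSeq.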

Additional observations from a re-analysis of the deposited data

How the results depend on the processing

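Under the 16 alternatives the 10 members gave 159 comparisons, of which 150 kept direction and side of the threshold. Scaling to total reads gave 1 member higher (Ssbp1), 3273 genes higher and 1381 lower in place of 2110 and 2205, and a members' median of -0.0038, and scaling without mtDNA-encoded genes gave 2717 higher, 1609 lower and a members' median of -0.055. The median of all genes moved from -0.02 to 0.09 and 0.05 with these 2 scalings. Over the runs without 1 heart, 1396 to 1977 genes were higher and 1423 to 2011 lower, the fewest without Ctrl replicate 3 (1396 and 1432) and Ctrl replicate 2 (1438 and 1423), and no member was called, with a members' median of -0.15 to -0.074, the latter without cKO replicate 1. Fewer hearts entered those fits. Signs turned for Tfam (0.028, total reads), Lrpprc (0.062, total reads, and 0.0067, without mtDNA-encoded genes), Tfb1m (-0.073 to 0.0999 over the runs without 1 heart) and Slirp (-0.024 to 0.075 over those runs), none of them called under any alternative, and the cause was not tested. The same held for the log2 ratios Polrmt over Tfb2m (-0.061, without cKO replicate 2, to 0.15) and Polrmt over Tefm (-0.13 to 0.074, positive without Ctrl replicate 3 or cKO replicate 2). On the gene strand alone no member matched the NRF1 or YY1 letters (0 each) and 5 matched GABP.

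Whether same-numbered hearts share a litter is not stated. Deviations of same-numbered hearts correlated at -0.06, 0.17 and -0.01, and those of differently numbered hearts at -0.14 to 0.16. With so few hearts these values cannot show whether the numbers mark pairs. With the replicate block 1874 genes were higher and 1982 lower, and 0 members were called. Of the comparisons of the 28 other genes named by rule, 372 kept direction and call, 76 lost the call and 0 reversed. Depth limits Polg2, Tfb1m and Slirp most, with 37 to 160 reads per heart, and 6 libraries limit every interval.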

Other observations

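Of 16 tested enzymes that modify mitochondrial RNA 3 rose, 3 fell and 10 did not pass, near the shares of all genes called higher and lower (16.3% and 17.0%), so the values below describe single genes and not the group. Pus1, a pseudouridine synthase of tRNAs, rose from 6.10 ± 0.867 to 11.8 ± 1.18 FPKM (SD, n = 3 each; log2 fold change 0.86, limma adjusted p = 0.00273), and Trit1, which adds an isopentenyl group to tRNAs, rose from 2.09 ± 0.277 to 3.71 ± 0.715 FPKM (0.60, adjusted p = 0.0127). Mrm1, a methyltransferase of 16S rRNA, rose by 0.34 (adjusted p = 0.0328). Osgepl1, which makes the t6A base of mitochondrial tRNAs, fell from 5.54 ± 0.466 to 3.17 ± 0.162 FPKM (-0.65, adjusted p = 0.00236). Trmt5, a tRNA methyltransferase, fell by 0.80 (adjusted p = 0.0476), with Ctrl replicate 3 at 24.5 FPKM and the other Ctrl hearts at 11.9 and 12.9 FPKM, and the change was -0.50 without that heart (adjusted p = 0.0322). Mto1, which modifies the wobble base of several tRNAs, fell by 0.26 (adjusted p = 0.0448). Leaving out 1 heart ended the call of Mrm1 for 5 of the hearts, that of Trmt5 for 4 and that of Mto1 for all 6 (adjusted p 0.0518 to 0.141). Over all 16 alternatives these calls held in 9, 7 and 4.

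Of 7 genes often used as measures of mitochondrial content 2 rose, 1 fell and 4 were not called, with a median log2 fold change of 0.04. Beside the 16.3% and 17.0% of all genes called higher and lower, nothing about the group is read from these counts. The outer membrane channels Vdac3 and Vdac2 rose from 39.9 ± 1.81 to 52.5 ± 1.65 and from 80.0 ± 4.97 to 102 ± 7.53 FPKM (log2 fold change 0.39 and 0.34, limma adjusted p = 0.00753 and 0.0243), and Immt, a cristae protein, fell by 0.26 (adjusted p = 0.0396). The call of Vdac2 was lost without Ctrl replicate 1 or 3 or cKO replicate 1 or 2. That of Immt held in 5 of the 16 alternatives. It was lost without each heart but Ctrl replicate 1 and by voom (adjusted p = 0.0564). It was also lost under each other scaling, with the replicate block and with no filter on low values.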
